A study of Mus musculus with 12 samples.

Results

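Matrix metalloproteinases (MMPs), ADAM proteases and TIMPs were followed in mouse macrophages and osteoclasts with and without lipopolysaccharide (LPS). The group was set by gene symbol and held 10 genes, Mmp8, Mmp12, Mmp13, Mmp14, Mmp19, Timp1, Timp2, Timp3, Adam8 and Adam17. All 10 were matched to 1 Ensembl identifier each among the 54532 genes of the table, and all 10 passed the filter on low values that left 11335 genes for testing. Marrow cells of wild-type mice were grown into macrophages with a medium supplement that supplies M-CSF, given at 2% in the final culture, and this supplement was shared by all groups. Osteoclasts were made from such macrophages with RANKL, which the sample source gives as 100 ng/mL and the protocol as 50 to 100 ng/mL. The LPS arms received this bacterial outer membrane component at 100 ng/mL on day 5, over 3 h. The 4 groups of 3 libraries were macrophages without RANKL and without LPS, the same cells with LPS, RANKL-treated osteoclasts without LPS, and such osteoclasts with LPS. The labels do not say whether the 3 libraries of a group came from separate mice or cultures, so that p-values measure only the spread between these libraries, and no sorting step is given in the sources used here.

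MMPs are zinc-dependent proteases that cut collagen and other matrix proteins. Most are secreted as inactive precursors, and some, such as MMP14, stay on the cell membrane. ADAMs are related membrane proteases, several of which release the outer part of other membrane proteins. TIMPs are small secreted proteins that block the active site of MMPs and, for some pairs, of ADAMs. In bone, MMP9, MMP13 and MMP14 take part in the breakdown and remodelling of matrix, while cathepsin K does most of the collagen removal beneath the osteoclast.

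Libraries held between 15651759 and 20281444 assigned reads, recovered from the deposited values. All 9 osteoclast marker genes were called higher in osteoclasts, and 7 of 8 macrophage marker genes were called lower, with and without LPS. Cd68, the exception, was higher in osteoclasts. Some macrophage signal remained in the osteoclast libraries, where Mrc1, a mannose receptor of macrophages, was at 2.80, 2.39 and 2.53 FPKM without LPS and at 3.35, 1.62 and 3.41 FPKM with it. FPKM is the number of fragments per kilobase of exon, here scaled by 1 denominator per library. LPS-treated osteoclast replicate 2 was the lowest of its group for Mrc1, and also for Mmp8, Mmp12, Mmp13, Mmp19, Timp1, Timp3, Adam8 and Adam17. Summed stromal and osteoblast markers (13 genes) ran from 27.8 to 38.5 FPKM in untreated macrophages, from 30.4 to 37.0 FPKM in LPS-treated macrophages, from 0.773 to 1.13 FPKM in untreated osteoclasts and from 1.14 to 1.87 FPKM in LPS-treated osteoclasts. In macrophages the sum was mostly Col1a1 and Col1a2, the chains of type I collagen, and in osteoclasts the highest was Runx2, an osteoblast transcription factor gene, at 0.552 ± 0.0756 FPKM without LPS (SD, n = 3), while Dcn and Lum were listed at 0 in all macrophage libraries and Lum and Cxcl12 in all osteoclast libraries. Dcn, a gene of stromal cells, went the other way, at 0.130, 0.243 and 0.141 FPKM in untreated osteoclasts. In bulk RNA, fewer cells of a type and less RNA per cell cannot be told apart. Mitochondrial genes held 1.27 to 1.62% of assigned reads in macrophage libraries and 5.16 to 6.18% in osteoclast libraries, and the part of this in the cell type differences was not tested.

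The bases before the start site are shown for Mmp13, Mmp14 and Timp1, because these 3 of the 10 genes had the largest LPS differences in macrophages. The sequences are those of RefSeq on GRCm38.p6, 250 bases each, and 9 of the 10 genes had an entry (all but Mmp19). Capitals mark the motif letters found on either strand, and positions count back from -1, the base before the start.
Mmp13 (chr9:7272264-7272513, + strand): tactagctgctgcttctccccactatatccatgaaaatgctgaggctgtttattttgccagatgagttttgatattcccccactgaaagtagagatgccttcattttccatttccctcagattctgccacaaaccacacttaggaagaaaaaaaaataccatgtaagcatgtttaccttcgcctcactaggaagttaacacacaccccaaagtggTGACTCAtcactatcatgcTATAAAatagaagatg
Mmp14 (chr14:54431348-54431597, + strand): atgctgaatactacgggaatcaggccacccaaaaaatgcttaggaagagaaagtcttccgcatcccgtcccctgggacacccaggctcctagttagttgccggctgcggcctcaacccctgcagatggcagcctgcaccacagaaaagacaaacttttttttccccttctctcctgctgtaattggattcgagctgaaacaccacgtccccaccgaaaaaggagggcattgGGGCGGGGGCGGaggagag
Timp1 (chrX:20869916-20870165, + strand): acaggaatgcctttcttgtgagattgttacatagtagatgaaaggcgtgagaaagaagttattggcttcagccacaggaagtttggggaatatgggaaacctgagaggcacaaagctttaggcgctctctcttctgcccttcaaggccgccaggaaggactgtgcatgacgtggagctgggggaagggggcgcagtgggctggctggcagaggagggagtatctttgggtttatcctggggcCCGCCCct
Mmp13 held the AP-1 letters (TGANTCA) from -35 to -29 and a TATA box (TATAAA) from -16 to -11. Mmp14 held GC boxes (GGGCGG) from -19 to -14 and from -13 to -8 and neither of the other motifs. Timp1 held a GC box on the opposite strand from -8 to -3. Of 32851 promoter windows of the same length, 6.75% held the AP-1 letters, 12.4% the TATA box and 32.7% the GC box, with both strands searched. The letters of PU.1 (GAGGAAG, in 10.6% of windows) were found for Mmp8 and Mmp12, and those of the NF-kB consensus (3.9% of windows) in none of the 10 windows of the 9 genes. Mmp12 had a second window at another RefSeq start, which held the AP-1 letters. A match is a description of the letters, and a missing match says only that they are not in this window.

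LPS changed 8 of the 10 genes in macrophages and 5 in osteoclasts, and all 10 differed between the cell types with and without LPS. In macrophages, Mmp13, Mmp14, Timp1, Timp3 and Adam17 rose and Mmp19, Timp2 and Adam8 fell, while Mmp8 and Mmp12 were not called. In osteoclasts, Mmp13, Mmp14, Timp1 and Adam17 rose and Adam8 fell. A gene was called when its adjusted p was under 0.05 in limma, with Benjamini-Hochberg adjustment over all genes tested. Among all genes tested, 69.9% were called for LPS in macrophages (36.8% higher and 33.1% lower) and 17.7% for LPS in osteoclasts (11.1% higher and 6.59% lower). Libraries with and without LPS did not overlap for 8 of the 10 genes in macrophages, against 74% of all genes, and for 6 of the 10 in osteoclasts, against 34% of all genes. The 6 were the 5 called genes and Mmp19. Between cell types without LPS, 2 of the 10 genes were higher and 8 lower in osteoclasts, against 77.8% of all genes called (38.8% higher and 39% lower) and 81.4% that did not overlap. With LPS, 3 were higher and 7 lower, against 83.9% of all genes called (40.9% higher and 43% lower) and 83.6% that did not overlap. The 10 genes overlapped in neither comparison, which at this background is close to the share of all genes. The difference between the LPS effects, the interaction, was called for 8 of the 10 genes, 3 above and 5 below 0, and for 56.6% of all genes (26.6% above and 30% below). Over the 10 genes the median log2 difference for LPS was 0.48 in macrophages and 0.12 in osteoclasts, against 0.02 and 0.01 over all genes tested. The count of 5 for LPS in osteoclasts was 3 with only the osteoclast libraries fitted, where 1394 of 11335 genes were called in place of 2008, and 3 with no filter on low values, where 1641 of 25854 were called, and 3 to 6 genes were called when 1 library was left out. The count was 3 without untreated osteoclast replicate 2 or 3 or LPS-treated osteoclast replicate 1 or 3, and 6 without LPS-treated osteoclast replicate 2. The comparison of the cell types without LPS uses the untreated libraries of both LPS comparisons, and the values of a gene in these comparisons are not independent.

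**Figure D1:**
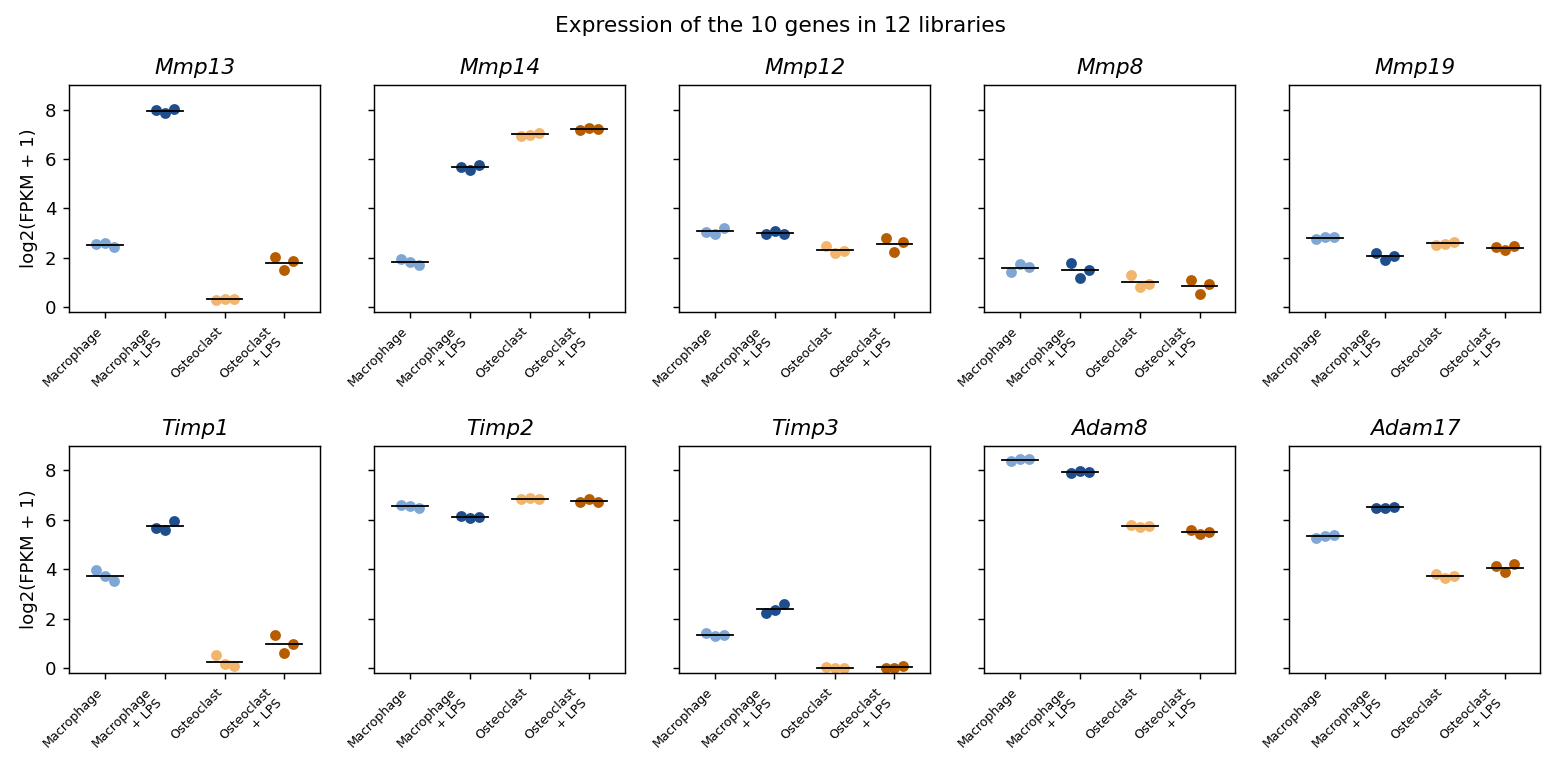
Expression of the 10 genes in each of the 12 libraries, as log2(FPKM + 1) on a common axis; points are libraries and lines are group means of 3. Mmp13 is highest in LPS-treated macrophages, and Mmp14 is highest in the osteoclast groups. Timp3 is near 0 in both osteoclast groups, and Timp1 only in untreated osteoclasts.

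Mmp13 (ENSMUSG00000050578, chromosome 9, 7272514 to 7283331, GRCm38) encodes collagenase 3, which cuts fibrillar collagen. It was at 4.83, 5.14 and 4.38 FPKM in untreated macrophages, at 249.97, 231.8 and 256.1 FPKM in LPS-treated macrophages, at 0.243, 0.266 and 0.264 FPKM in untreated osteoclasts and at 3.12, 1.82 and 2.71 FPKM in LPS-treated osteoclasts. No 2 of the 4 groups overlapped, and every LPS-treated macrophage library was above all others. The mean in macrophages went from 4.78 ± 0.379 to 246 ± 12.7 FPKM (SD, n = 3), 51.4-fold, a log2 difference of 5.42 (SE 0.11, limma adjusted p 1.14e-12) on the log2(FPKM + 1) scale. In osteoclasts the mean went from 0.258 ± 0.0125 to 2.55 ± 0.663 FPKM (SD, n = 3), 9.89-fold, a log2 difference of 1.48 (SE 0.11, limma adjusted p 1.78e-06). The log2(FPKM + 1) scale understates changes of genes at low levels, so the osteoclast value by voom on recovered reads is given as well, 3.25 (SE 0.38, adjusted p 3.38e-06).

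The untreated osteoclast level of Mmp13 rested on 12 reads in each library, and the LPS-treated level on 165, 75 and 132 reads. The LPS effect of Mmp13 was smaller in osteoclasts, with an interaction of -3.94 (SE 0.16, limma adjusted p 1.44e-09) for log2(FPKM + 1) values, and of -2.43 (SE 0.39, adjusted p 3.34e-05) by voom. Without LPS, osteoclasts had 18.6-fold less Mmp13 than macrophages, and with LPS 96.5-fold less. The log2 differences were -2.20 (SE 0.11, limma adjusted p 2.14e-09) and -6.14 (SE 0.11, limma adjusted p 2.37e-13). Most macrophage markers were far lower in the untreated osteoclasts as well, with Mrc1 at 2.57 ± 0.209 against 293 ± 2.68 FPKM and Cx3cr1 at 0.486 ± 0.162 against 142 ± 3.94 FPKM (SD, n = 3 each). The 8 markers summed to 2150.4 to 2226 FPKM in untreated macrophages and 1737 to 1816 FPKM in untreated osteoclasts, where Cd68 alone was at 1402 ± 43.0 FPKM (SD, n = 3), and none was at 0 in a group. The 5 tested stromal markers were called lower in untreated osteoclasts too. They passed the filter through macrophage libraries alone, which set this direction in advance. The part of either list in the Mmp13 difference was not tested.

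Macrophage markers also moved with LPS among the osteoclast libraries, where 3 of 8 were called higher, 1 lower and 4 not called. Adgre1 was at 37.0, 31.2 and 31.3 FPKM without LPS and at 73.1, 42.5 and 70.9 FPKM with LPS, a difference of 0.85 (SE 0.16, limma adjusted p 0.00258). Fcgr1 differed by 0.79 (SE 0.12, limma adjusted p 7.35e-04) and Cd14 by 1.40 (SE 0.13, limma adjusted p 8.56e-06), whereas Mrc1 was at 0.05 (SE 0.16, limma adjusted p 0.876). LPS-treated replicate 2 was the lowest of its group in these 4 markers, as in Mmp13, Timp1 and Adam17. Their part in the osteoclast LPS differences of those 3 genes was not tested. Mmp13 was called in all 12 fits without 1 library, at 1.36 to 1.64.

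Mmp14 (ENSMUSG00000000957, chromosome 14, 54431612 to 54445364) encodes a membrane-bound MMP that cuts collagen at the cell surface and, with TIMP2, activates the MMP2 precursor. It was at 2.87, 2.54 and 2.24 FPKM in untreated macrophages and at 50.2, 45.6 and 53.0 FPKM in LPS-treated macrophages. Osteoclast libraries had 122.6, 126.1 and 131.4 FPKM without LPS and 142.7, 151.7 and 148.7 FPKM with LPS. The groups stood in the order untreated macrophages, LPS-treated macrophages, untreated osteoclasts, LPS-treated osteoclasts, with no overlap between neighbours. LPS raised the macrophage mean from 2.55 ± 0.318 to 49.6 ± 3.72 FPKM (SD, n = 3), 19.4-fold, a log2 difference of 3.83 (SE 0.07, limma adjusted p 3.98e-13).

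In osteoclasts the mean of Mmp14 went from 126.7 ± 4.40 to 147.7 ± 4.56 FPKM (SD, n = 3), 1.17-fold, a log2 difference of 0.22 (SE 0.07, limma adjusted p 0.0442). This last call was weak, since it was kept under 2 of 7 alternatives and in 4 of 12 fits without 1 library. The adjusted p ran from 0.00294 to 0.266 over the 7 alternatives. Untreated osteoclasts had 49.7-fold more Mmp14 than untreated macrophages, with a log2 difference of 5.17 (SE 0.07, limma adjusted p 2.01e-14). With LPS in both cell types the ratio was 2.98, with a log2 difference of 1.56 (SE 0.07, limma adjusted p 3.90e-10). The interaction was -3.61 (SE 0.10, limma adjusted p 6.61e-11), and it was called under all 6 alternatives run for it, at -4.06 to -3.36.

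Mmp12 (ENSMUSG00000049723, chromosome 9, 7344381 to 7369499) encodes macrophage elastase, a protease of elastin. Its FPKM were 7.38, 6.83 and 8.35 in untreated macrophages, 6.73, 7.55 and 6.78 in LPS-treated macrophages, 4.55, 3.63 and 3.89 in untreated osteoclasts and 5.92, 3.76 and 5.28 in LPS-treated osteoclasts. Every osteoclast library was below every macrophage library, whereas libraries with and without LPS overlapped in both cell types. The cell type difference was -0.76 (SE 0.12, limma adjusted p 1.20e-04) without LPS and -0.44 (SE 0.12, limma adjusted p 0.00592) with LPS. LPS differences of -0.08 (SE 0.12, limma adjusted p 0.563) in macrophages and 0.24 (SE 0.12, limma adjusted p 0.218) in osteoclasts were not called. The osteoclast value was called without LPS-treated osteoclast replicate 2, at 0.40 (adjusted p 0.0146), and its interaction was then called as well. Under TPM scaling the untreated cell type difference was -1.25, and the interaction was called at 0.92 (adjusted p 8.83e-04).

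Mmp8 (ENSMUSG00000005800, chromosome 9, 7558456 to 7568485), the collagenase best known from neutrophils, had the lowest mean FPKM of the 5 MMP genes in untreated macrophages, 2.04 ± 0.344 (SD, n = 3). Its FPKM were 1.67, 2.35 and 2.11 in untreated macrophages, 2.42, 1.30 and 1.88 in LPS-treated macrophages, 1.47, 0.781 and 0.922 in untreated osteoclasts and 1.12, 0.455 and 0.926 in LPS-treated osteoclasts. Osteoclast libraries were below the macrophage libraries of the same treatment, and LPS-treated libraries overlapped the untreated ones. The cell type difference was -0.57 (SE 0.18, limma adjusted p 0.0116) without LPS and -0.64 (SE 0.18, limma adjusted p 0.00539) with LPS. Over the 7 alternatives it ran from -1.15 to -0.41 without LPS and from -1.13 to -0.59 with LPS, and was called in each. LPS differences were -0.10 (SE 0.18, limma adjusted p 0.641) in macrophages and -0.17 (SE 0.18, limma adjusted p 0.576) in osteoclasts. Under TPM scaling, which moved the median of all genes for LPS in macrophages from 0.02 to -0.55, Mmp8 was called lower there at -0.69 (adjusted p 0.0209) and Mmp12 at -0.71 (adjusted p 3.12e-04). The 10 neutrophil markers summed to 11.3 to 14.1 FPKM in untreated macrophages, 20.5 to 28.2 FPKM in LPS-treated macrophages, 0.427 to 0.896 FPKM in untreated osteoclasts and 0.796 to 2.04 FPKM in LPS-treated osteoclasts, with Ly6g at 0 in all untreated macrophage and all osteoclast libraries. Csf3r was the highest of the 10 in macrophages, at 5.26 to 5.61 FPKM without LPS and 9.19 to 13.6 FPKM with it. Elane, Mpo and Ly6g had at most 1 read in any library. The part of these markers in the Mmp8 level was not tested.

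Mmp19 (ENSMUSG00000025355, chromosome 10, 128790910 to 128800824), a secreted MMP, fell with LPS in macrophages and differed little between the untreated cell types. Its FPKM were 5.73, 6.20 and 6.11 in untreated macrophages, 3.64, 2.73 and 3.22 in LPS-treated macrophages, 4.82, 4.96 and 5.33 in untreated osteoclasts and 4.46, 4.00 and 4.54 in LPS-treated osteoclasts. LPS-treated macrophages were below all other libraries, and no pair of groups overlapped within a cell type. The LPS difference was -0.75 (SE 0.08, limma adjusted p 2.70e-06) in macrophages and -0.18 (SE 0.08, limma adjusted p 0.138) in osteoclasts, with an interaction of 0.57 (SE 0.11, limma adjusted p 7.63e-04). Osteoclasts were lower without LPS, at -0.22 (SE 0.08, limma adjusted p 0.0214), and higher with LPS, at 0.35 (SE 0.08, limma adjusted p 0.00105). The first of these was not called without untreated macrophage replicate 2 or 3 or untreated osteoclast replicate 1 or 2, at -0.21 to -0.19. Under TPM scaling it was -0.64, the macrophage LPS difference was -1.46 and the interaction was 1.19. Mmp19 shares 789 of its 3533 exon bases with Tmem198b on the opposite strand, and whether counting took strand into account is not given in the sources used here. Tmem198b was at 1.80 FPKM in untreated and 1.00 FPKM in LPS-treated macrophages, so the Mmp19 values are uncertain.

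**Figure D2:**
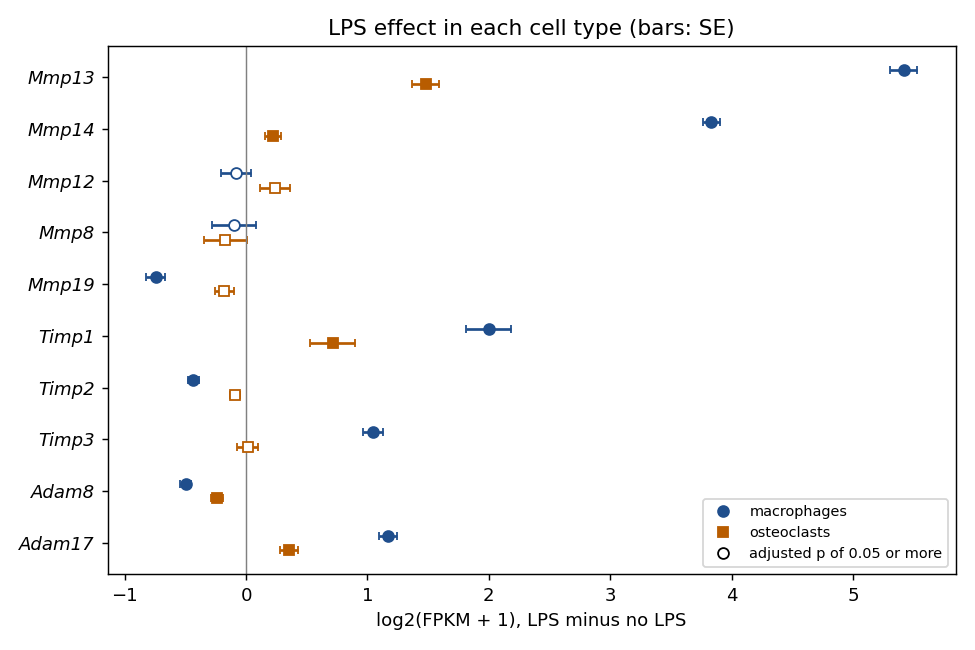
LPS effect on each gene as log2(FPKM + 1) with LPS minus without, in macrophages (circles) and osteoclasts (squares), with bars for 1 SE; open symbols have an adjusted p of 0.05 or more. Mmp13 and Mmp14 lie at 5.42 and 3.83 in macrophages and at 1.48 and 0.22 in osteoclasts.

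Timp1 (ENSMUSG00000001131, chromosome X, 20870166 to 20874735) encodes a secreted inhibitor of most soluble MMPs. It was at 14.7, 12.2 and 10.4 FPKM in untreated macrophages, at 49.6, 46.5 and 61.4 FPKM in LPS-treated macrophages, at 0.427, 0.133 and 0.0663 FPKM in untreated osteoclasts and at 1.54, 0.511 and 0.987 FPKM in LPS-treated osteoclasts. The 4 groups did not overlap, and both osteoclast groups lay far below the macrophage groups. LPS raised the macrophage mean from 12.4 ± 2.16 to 52.5 ± 7.86 FPKM (SD, n = 3), 4.23-fold, a log2 difference of 2.00 (SE 0.19, limma adjusted p 1.10e-06). The cell type difference was -3.47 (SE 0.19, limma adjusted p 4.04e-09) without LPS and -4.75 (SE 0.19, limma adjusted p 1.52e-10) with LPS. As ratios of means, osteoclasts had 59.4-fold less Timp1 without LPS (124-fold less without osteoclast replicate 1) and 51.9-fold less with LPS. By voom the differences were -5.95 and -5.72.

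The osteoclast libraries held 7, 2 and 1 reads of Timp1 without LPS and 27, 7 and 16 reads with LPS. On the log2(FPKM + 1) scale the osteoclast LPS effect was 0.71 (SE 0.19, limma adjusted p 0.0208), kept under 4 of 7 alternatives and in 8 of 12 fits with 1 library left out. By voom it was 2.31 (SE 0.82, adjusted p 0.0508), close to the macrophage value of 2.08 (SE 0.13, adjusted p 2.21e-11). The interaction of Timp1 accordingly depended on the scale, at -1.28 (SE 0.26, limma adjusted p 0.00128) on log2(FPKM + 1) and 0.23 (SE 0.83, adjusted p 0.838) by voom. It was also not called with a pseudocount of 0.1 (-0.17, adjusted p 0.832) or after rescaling to TPM (-0.20, adjusted p 0.642), so a difference in fold response between the cell types was not shown.

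Timp2 (ENSMUSG00000017466, chromosome 11, 118301069 to 118355740), the TIMP that takes part in MMP2 activation by MMP14, was the most abundant of the 3 TIMP genes in every library. Its FPKM were 94.9, 92.8 and 88.4 in untreated macrophages, 69.8, 66.1 and 67.7 in LPS-treated macrophages, 112.6, 116.7 and 114.2 in untreated osteoclasts and 105.8, 113.6 and 103.0 in LPS-treated osteoclasts. LPS-treated macrophages were below all other libraries, and the osteoclast groups overlapped each other. LPS lowered the macrophage level by a log2 difference of -0.43 (SE 0.04, limma adjusted p 2.03e-06), while the osteoclast difference of -0.09 (SE 0.04, limma adjusted p 0.176) was not called. Over fits without 1 library the osteoclast difference ran from -0.13 to -0.06 and was called in 1 of 12. The interaction was 0.34 (SE 0.06, limma adjusted p 4.68e-04). These values depended on scaling, with -1.08 and -1.22 in macrophages, -0.16 and -0.21 in osteoclasts (both then called) and 0.92 and 1.01 for the interaction under TPM scaling and quantile normalization. Osteoclasts were higher with LPS, at 0.65 (SE 0.04, limma adjusted p 2.22e-08), and without LPS, at 0.31 (SE 0.04, limma adjusted p 3.03e-05), the last of which turned to -0.10 (adjusted p 0.0676) under TPM scaling and to -0.03 (adjusted p 0.531) under quantile normalization.

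Timp3 (ENSMUSG00000020044, chromosome 10, 86300372 to 86349506) encodes a TIMP that binds to the matrix and also inhibits ADAM17. It was at 1.64, 1.45 and 1.49 FPKM in untreated and at 3.74, 4.02 and 4.96 FPKM in LPS-treated macrophages, with no overlap. The log2 difference was 1.05 (SE 0.08, limma adjusted p 2.51e-07), 2.78-fold as a ratio of means. Osteoclast libraries held 3, 0 and 2 reads of Timp3 without LPS and 1, 0 and 8 reads with LPS, against 271 to 309 reads in untreated macrophages. With the untreated osteoclasts set to a floor of 3 reads per library, they were at least 72.2-fold lower than untreated macrophages, a bound that covers counting error only. The cell type difference on the log2 scale was -1.32 (SE 0.08, limma adjusted p 1.85e-08) without LPS and -2.36 (SE 0.08, limma adjusted p 5.87e-11) with LPS. By voom, on these few osteoclast reads, the 2 differences were -7.04 (SE 0.79) and -8.32 (SE 0.76). The osteoclast LPS effect was 0.01 (SE 0.08, limma adjusted p 0.943). The interaction was -1.03 (SE 0.12, limma adjusted p 1.20e-05), but by voom it was -1.28 (SE 1.10, adjusted p 0.345), so at these read numbers a difference in fold response was not detectable. Timp3 shares 1733 of 8144 exon bases with Syn3 on the opposite strand, whose group means were at most 0.0186 FPKM. Of the 13 stromal markers, 5 were tested and all 5 were called lower in untreated osteoclasts. These 5, like Timp3, passed the filter through macrophage libraries alone, which set this direction in advance. Dcn was detected only in the osteoclast libraries. The part of the stromal markers in the differences of Timp1 and Timp3 was not tested.

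**Figure D3:**
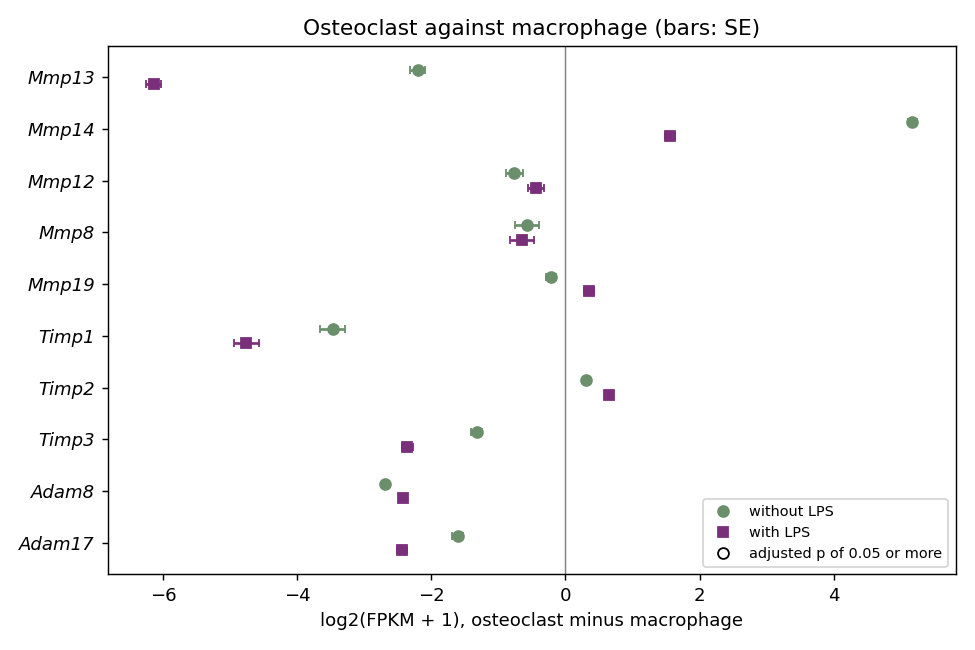
Difference between osteoclasts and macrophages for each gene on the log2(FPKM + 1) scale, without LPS (circles) and with LPS (squares), with bars for 1 SE. Mmp14 and Timp2 lie above 0 in both comparisons, Mmp19 lies below 0 without LPS and above 0 with it, and the other 7 genes lie below 0 in both; Timp2 without LPS turned below 0 under TPM scaling and quantile normalization.

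Adam17 (ENSMUSG00000052593, chromosome 12, 21323509 to 21373632) encodes the protease that releases TNF and its receptors from the membrane. It was at 37.1, 39.2 and 41.2 FPKM in untreated macrophages, at 88.5, 89.3 and 90.5 FPKM in LPS-treated macrophages, at 13.0, 11.4 and 12.1 FPKM in untreated osteoclasts and at 16.3, 13.8 and 17.5 FPKM in LPS-treated osteoclasts. No groups overlapped, although LPS-treated osteoclast replicate 2 lay close to untreated replicate 1. LPS raised the macrophage mean from 39.2 ± 2.05 to 89.4 ± 1.01 FPKM (SD, n = 3), 2.28-fold, a log2 difference of 1.17 (SE 0.07, limma adjusted p 3.12e-08). The osteoclast difference was 0.35 (SE 0.07, limma adjusted p 0.00666), 1.30-fold, and was not called with only the osteoclast libraries in the fit (adjusted p 0.0553).

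The interaction of Adam17 was -0.82 (SE 0.11, limma adjusted p 3.39e-05), which was -0.24 (adjusted p 0.0593) after rescaling to TPM and -0.22 (adjusted p 0.0928) after quantile normalization. The macrophage LPS difference was then 0.54 and 0.50, still called. Osteoclasts had less Adam17 than macrophages, by -1.61 (SE 0.07, limma adjusted p 1.03e-09) without LPS and -2.43 (SE 0.07, limma adjusted p 1.74e-11) with LPS. Adam17 shares 311 of 7154 exon bases with Iah1 on the opposite strand.

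Adam8 (ENSMUSG00000025473, chromosome 7, 139978932 to 139992562), a myeloid ADAM that also cuts membrane proteins, had the highest level of the 10 genes in untreated macrophages. Its FPKM were 327.8, 353.8 and 354.8 in untreated macrophages, 235.4, 253.2 and 243.9 in LPS-treated macrophages, 54.2, 52.0 and 52.4 in untreated osteoclasts and 46.7, 42.2 and 44.8 in LPS-treated osteoclasts. The 4 groups did not overlap. LPS lowered it in macrophages, at -0.50 (SE 0.05, limma adjusted p 1.34e-06), and in osteoclasts, at -0.24 (SE 0.05, limma adjusted p 0.00385), with an interaction of 0.26 (SE 0.07, limma adjusted p 0.00624). Under TPM scaling and quantile normalization the macrophage difference was -1.15 and -1.33 and the interaction 0.83 and 0.98. Osteoclasts had 6.54-fold less Adam8 without LPS, with a log2 difference of -2.69 (SE 0.05, limma adjusted p 2.61e-13), and 5.48-fold less with LPS, with a log2 difference of -2.43 (SE 0.05, limma adjusted p 4.34e-13).

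Relative levels within a library do not depend on how libraries are scaled to each other. Mmp14 made up 11.1% ± 1.57 (SD, n = 3) of the summed FPKM of the 5 MMP genes in untreated macrophages and 92.4% ± 0.631 (SD, n = 3) in untreated osteoclasts. With LPS, Mmp13 made up 80.0% ± 0.224 (SD, n = 3) of the sum in macrophages and 1.59% ± 0.433 (SD, n = 3) in osteoclasts. The leading MMP gene among the 5 was thus Mmp12 in untreated macrophages, at 32.8% ± 3.18 (SD, n = 3), Mmp13 in LPS-treated macrophages and Mmp14 in both osteoclast groups. Timp2 made up 86.9% ± 1.44 (SD, n = 3) of the summed TIMP genes in untreated macrophages, 54.6% ± 3.58 (SD, n = 3) in LPS-treated macrophages and 99.8% ± 0.176 (SD, n = 3) in untreated osteoclasts. Timp1 made up 42.0% ± 3.32 (SD, n = 3) in LPS-treated macrophages.

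The ratio of Mmp14 to Timp2 was 0.0276 ± 0.00249 in untreated macrophages, 0.731 ± 0.0475 in LPS-treated macrophages, 1.11 ± 0.0378 in untreated osteoclasts and 1.38 ± 0.0588 in LPS-treated osteoclasts (SD, n = 3 each). No groups overlapped in this ratio, and osteoclasts with LPS were above osteoclasts without it in every library. The ratio of Adam8 to Adam17 was 8.83 ± 0.200 in untreated macrophages and 2.73 ± 0.0924 in LPS-treated macrophages, and 4.35 ± 0.198 and 2.83 ± 0.2496 in osteoclasts without and with LPS (SD, n = 3 each). It was lower with LPS in every library of both cell types, and the LPS-treated groups overlapped each other.

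**Figure D4:**
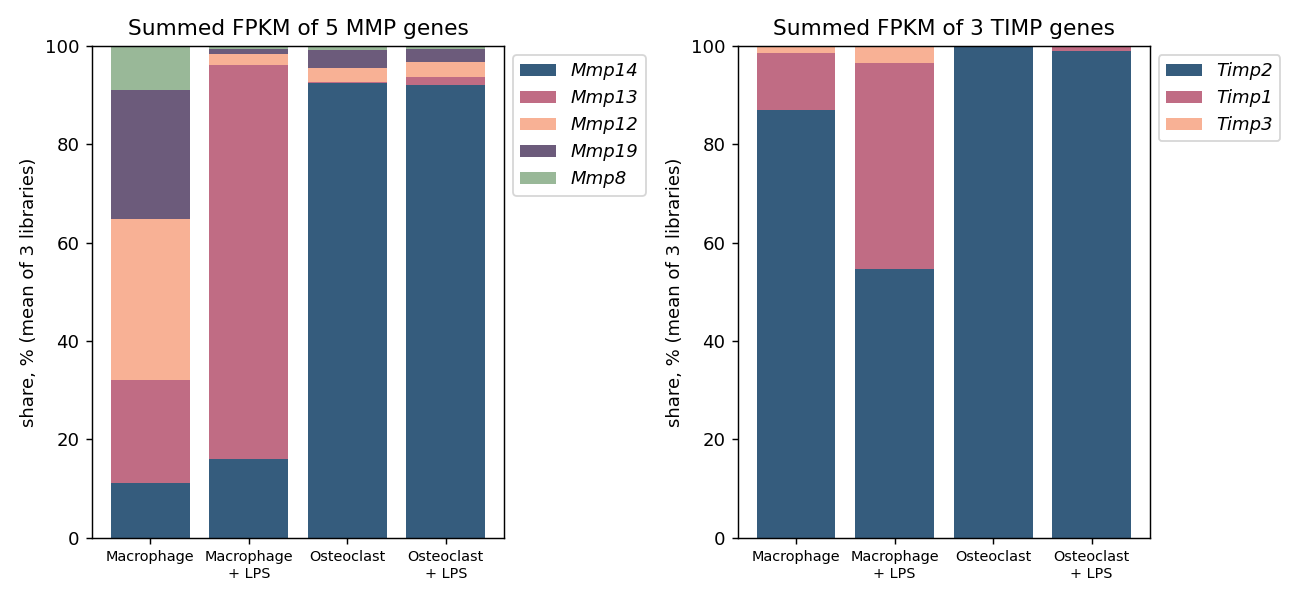
Mean share of each gene in the summed FPKM of the 5 MMP genes (left) and of the 3 TIMP genes (right), in percent, over the 3 libraries of each group. Mmp13 takes 80.0% in LPS-treated macrophages, Mmp14 takes 92.4% in untreated osteoclasts, and Timp2 takes 99.8% there.

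Of 18 other MMP genes, 4 passed the filter. Mmp9, gelatinase B, was called higher in osteoclasts without LPS, at 7459.9 ± 295 FPKM against 2.80 ± 0.301 FPKM in macrophages (SD, n = 3), and Mmp14 was at 1.70% ± 0.0277 (SD, n = 3) of the Mmp9 level in untreated osteoclasts. Mmp2, gelatinase A, and Mmp27 were called lower there, at log2 differences of -1.77 (SE 0.09, limma adjusted p 1.93e-09) and -1.35 (SE 0.12, limma adjusted p 4.72e-07). Mmp2 was at 3.20 ± 0.408 FPKM in untreated macrophages and 0.233 ± 0.124 FPKM in untreated osteoclasts, and Mmp27 at 2.48 ± 0.387 and 0.366 ± 0.124 FPKM (SD, n = 3 each). Their differences reached -3.86 and -2.77 over the 7 alternatives. Both genes passed the filter through macrophage libraries alone, which set this direction in advance. LPS raised Mmp25, another membrane-bound MMP, in macrophages from 0.0444 ± 0.0396 to 8.15 ± 0.644 FPKM (SD, n = 3). The difference on the log2 scale was 3.13 (SE 0.07, limma adjusted p 2.69e-12) and ran from 3.05 to 8.25 over the 7 alternatives. Mmp25 passed the filter through LPS-treated macrophage libraries alone, which set the direction of this difference in advance. Mmp9 was also called for LPS in macrophages, at 0.21 (SE 0.09, limma adjusted p 0.0443), although its libraries with and without LPS overlapped. It was called under 3 of 7 alternatives, among them TPM scaling in the other direction at -0.33, and in 4 of 12 fits without 1 library. In osteoclasts limma called none of the 4 for LPS (0 also at an unadjusted p under 0.05), with adjusted p from 0.171 to 0.762, and voom called 1, Mmp25. Over all genes limma called 17.7% and voom 2410 of 11335, and counts of 0 and 1 in 4 are close to these shares.

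Of 32 other ADAM genes, 3 passed the filter, and all 3 were called lower in osteoclasts without LPS, as 39% of all genes were. The log2 differences were -1.04 (SE 0.04, limma adjusted p 3.03e-10) for Adam9, -1.39 (SE 0.06, limma adjusted p 3.28e-10) for Adam10, which cuts Notch and other receptors, and -2.75 (SE 0.05, limma adjusted p 3.91e-13) for Adam15. In macrophages LPS lowered Adam10 by -0.45 (SE 0.06, limma adjusted p 1.76e-05) and Adam15 by -0.27 (SE 0.05, limma adjusted p 4.80e-04), as it lowered Adam8. Over the 7 alternatives these 2 values reached -1.16 and -0.92. Adam9 was higher, at 0.71 (SE 0.04, limma adjusted p 1.71e-08), but was at 0.07 under TPM scaling and at -0.08 under quantile normalization. For LPS in osteoclasts limma called 0 of the 3 (1, Adam15, at an unadjusted p under 0.05), with adjusted p from 0.138 to 0.2499, and voom called 0. Limma called 17.7% of all genes there and voom 2410 of 11335, so 0 of 3 is close to the share of all genes.

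Among 19 ADAMTS genes, secreted relatives that cut proteoglycans and collagen precursors, 3 passed the filter. LPS raised Adamts4, an aggrecanase, from 0.109 ± 0.0150 to 30.8 ± 0.886 FPKM in macrophages and from 1.31 ± 0.217 to 10.3 ± 1.10 FPKM in osteoclasts (SD, n = 3 each). The log2 differences were 4.84 (SE 0.08, limma adjusted p 2.61e-13) and 2.29 (SE 0.08, limma adjusted p 3.28e-09). Over the 7 alternatives they ran from 4.57 to 8.10 and from 2.24 to 2.99. Adamts10 fell in macrophages, by -1.15 (SE 0.09, limma adjusted p 3.13e-07), and in osteoclasts was at -0.31 (SE 0.09, limma adjusted p 0.0425), a call kept under 4 of 7 alternatives and in 4 of 12 fits without 1 library. The macrophage value of Adamts10 reached -1.96 over the 7 alternatives. Adamts14 was higher in osteoclasts without LPS, at 6.05 ± 0.411 against 0.421 ± 0.0594 FPKM (SD, n = 3 each). Its log2 difference was 2.31 (SE 0.08, limma adjusted p 8.57e-11) and reached 3.84 over the 7 alternatives. Adamts14 passed the filter through osteoclast libraries alone, which set this direction in advance.

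Of 4 genes for partners of ADAM17, all tested, LPS raised 3 in macrophages and 2 in osteoclasts, where 36.8% and 11.1% of all genes were called higher. Rhbdf2 encodes iRhom2, which carries ADAM17 to the cell surface in myeloid cells. It went from 19.9 ± 1.66 to 83.2 ± 2.91 FPKM in macrophages and from 7.89 ± 0.0527 to 11.8 ± 0.188 FPKM in osteoclasts (SD, n = 3 each). Its LPS differences of 2.01 (SE 0.05, limma adjusted p 9.17e-12) and 0.53 (SE 0.05, limma adjusted p 2.13e-05) had the directions of those of Adam17. Furin, which removes the inhibitory part of ADAM17 and MMP14 precursors, rose by 1.04 (SE 0.04, limma adjusted p 6.01e-10) in macrophages and was at 0.15 (SE 0.04, limma adjusted p 0.0353) in osteoclasts. The first value went down to 0.42 over the 7 alternatives, and the second call was kept under 3 of 7 and in 8 of 12 fits without 1 library.

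Of 18 genes for known ADAM17 substrates, 13 were tested. LPS raised 7 and lowered 2 in macrophages (36.8% and 33.1% of all genes), with a median log2 difference of 0.87 against 0.02 over all genes tested, and raised 6 and lowered 1 in osteoclasts (11.1% and 6.59% of all genes), with a median of 0.12 against 0.01. Without LPS, 12 of the 13 were lower in osteoclasts and 1, Hbegf, was higher, against 39% and 38.8% of all genes. Some of the 12 passed the filter through macrophage libraries alone, which set their direction in advance. Tnf, the substrate that gave ADAM17 its other name, was at 1484 ± 115 FPKM in LPS-treated macrophages and at 142 ± 30.2 FPKM in LPS-treated osteoclasts (SD, n = 3). Tnfrsf1a, a TNF receptor gene, rose in macrophages, by 0.87 (SE 0.03, limma adjusted p 2.60e-10), and fell in osteoclasts, by -0.22 (SE 0.03, limma adjusted p 5.87e-04). The macrophage value went down to 0.13 over the 7 alternatives, called under all 7. Tnfrsf1b, the gene of the other TNF receptor, rose in both cell types, from 69.1 ± 1.28 to 627 ± 8.15 FPKM in macrophages and from 19.3 ± 0.667 to 90.1 ± 15.6 FPKM in osteoclasts (SD, n = 3 each). Its LPS differences were 3.16 (SE 0.10, limma adjusted p 2.94e-11) and 2.15 (SE 0.10, limma adjusted p 2.08e-08). Hbegf, which encodes a growth factor precursor, went from 9.02 ± 0.546 to 20.9 ± 1.83 FPKM (SD, n = 3) in osteoclasts. Its LPS difference there was 1.13 (SE 0.11, limma adjusted p 1.43e-05), while in macrophages it was not called, at -0.19 (SE 0.11, limma adjusted p 0.126). That macrophage value ran from -0.81 to -0.13 over the 7 alternatives and was called under TPM scaling alone, and also without untreated macrophage replicate 3, at -0.29.

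Genes with the most similar profiles were found by the root mean square difference between centred log2(FPKM + 1) values over the 12 libraries, among all genes tested. The nearest to Mmp14 were Src, a tyrosine kinase gene, at 0.23 and Jdp2, a gene of an AP-1 family factor, at 0.31. Src was at 1.23 FPKM in untreated macrophages, 46.2 FPKM in LPS-treated macrophages, 108.8 FPKM in untreated and 124.2 FPKM in LPS-treated osteoclasts. The nearest to Mmp13 were Tnfsf9, a TNF family ligand gene, at 0.26 and AA467197 at 0.33. Ctsc, a gene for the protease cathepsin C, at 0.16 and Wfdc17 at 0.17 were nearest to Timp1, and Ell2 at 0.10 and Cpd at 0.11 to Adam17. For Timp2 the nearest was Chmp7 at 0.05, and for Mmp19 it was Zfp157 at 0.07. The distances carry no test.

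**Figure D5:**
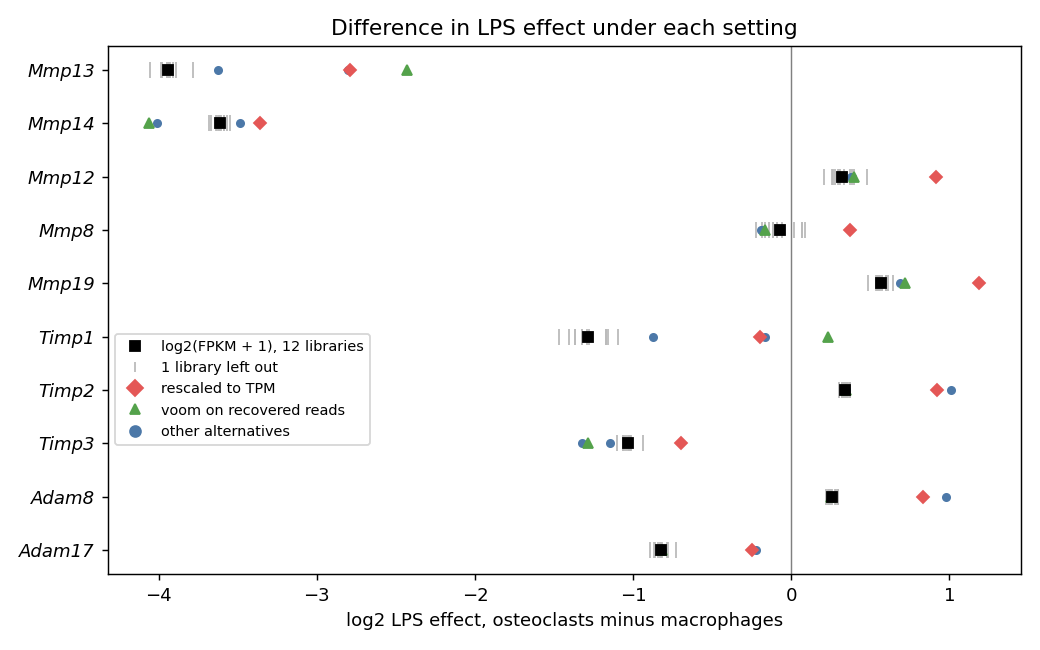
Interaction of each gene, the osteoclast minus the macrophage LPS effect on the log2 scale, under the reported setting (squares), each alternative and each fit with 1 library left out. Mmp13 and Mmp14 stay below -2 under every setting shown, whereas Timp1 runs from -1.47 to 0.23 and Adam17 from -0.89 to -0.22.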

How the data were processed

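Deposited FPKM values for 12 libraries were used. Per the submitters' processing notes, the tools were fastp, STAR, featureCounts and DESeq2 and the build was mm10, with no version or order. Whole reads, within 0.02, were recovered from the steps of the values for 25777 of 25854 genes above 0 (99.7%), and at GENCODE M21 exon lengths for 96.7%. Denominators matched median-of-ratios scaling within 3.99e-06%, so levels are relative to the typical gene. Genes at 1 FPKM in 3 libraries were kept. Limma 3.58.1 in R 4.3.3 was fitted to log2(FPKM + 1) with 4 group means and a variance trend, two-sided, and voom used recovered reads. The limma fit was tested on simulated reads, for the LPS comparison in macrophages only. The members, lists, tests and motifs were chosen with earlier results of these data known. All members were named. From other lists, the 2 highest and 2 lowest called genes per contrast with a mean of 1 FPKM could be named, besides Mmp9, Adam10, Furin, Rhbdf2, Tnf, its receptors and markers. Alternatives were a pseudocount of 0.1, no filter, TPM, quantile normalization, a replicate block, only the groups compared, voom and each library left out. Figures were drawn in matplotlib 3.10.9.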

Additional observations from a re-analysis of the deposited data

Results flagged for a closer look

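Macrophages and osteoclasts differed in their LPS effect, by the limma interaction term, for 8 of the 10 genes, against 56.6% of all genes tested. On the log2 scale the osteoclast effect minus the macrophage effect was -3.94 for Mmp13, -3.61 for Mmp14, -1.28 for Timp1, -1.03 for Timp3 and -0.82 for Adam17, all raised by LPS in macrophages. It was 0.57 for Mmp19, 0.34 for Timp2 and 0.26 for Adam8, all lowered by LPS in macrophages. The interactions of Mmp13, Mmp14, Mmp19, Timp2 and Adam8 were called under all 6 alternatives that kept the 12 libraries, while those of Timp1, Timp3 and Adam17 were called under 3, 5 and 4 of them. For Timp1 and Timp3 the difference was not called by voom on recovered reads, so a difference in fold response was not shown for these 2.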

How the results depend on the processing

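Counting each difference of the 10 genes under each alternative once, 891 kept direction and call, 30 lost the call, 8 gained one and 11 turned direction. No filter, the replicate block and the fit of only the groups compared leave the log2 difference unchanged by construction. Fits without 1 library share the other libraries with the reported fit. A large part of the 891 therefore follows from how the alternatives were built. Of the 10 genes, 5 were called for LPS in osteoclasts, 3 with no filter and 3 with only the groups compared (2008 of 11335, 1641 of 25854 and 1394 of 11335 over all genes), and 3 to 6 with 1 library left out (3 without untreated replicate 2 or 3 or LPS-treated replicate 1 or 3). No pairing of libraries is given, and same-numbered libraries correlated at -0.07 to 0.10, with the own number highest in 14 of 36 comparisons; with the replicate block 4 were called for LPS in osteoclasts, and 1930 of all 11335 genes. Rescaling to TPM moved the median gene to -0.55 for LPS in macrophages, where higher genes made up 18.5% of calls in place of 52.6% (37.0% after quantile normalization), and to 0.51 for the interaction (82.0% in place of 47.0%). In osteoclasts that share went from 62.8% to 43.5% by TPM and 38.5% by quantile normalization, and between untreated cell types from 49.9% to 29.9% by TPM. The interaction share by quantile normalization was 59.9%. Turned directions were for LPS in macrophages Mmp8 without LPS-treated macrophage replicate 2 (0.050, in a range from -0.24 over fits without 1 library) and Adam9 by quantile normalization (-0.081), besides Mmp9 by TPM (-0.33). For LPS in osteoclasts they were Timp3 by quantile normalization (-0.028) and without LPS-treated replicate 3 (-0.012, in a range up to 0.026). Between untreated cell types Timp2 turned by TPM (-0.10) and quantile normalization (-0.032). For the interaction, Mmp8 turned by TPM (0.37) and, with 1 library left out, ran from -0.22 to 0.089 and was above 0 in 4 fits, and Timp1 turned by voom (0.23). The cause was not tested. In osteoclasts Timp1 and Timp3 rested on at most 27 and 8 reads per library.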

Other observations

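Genes of urokinase and its receptor, parts of a protease cascade that can activate MMP precursors, moved in opposite directions with LPS. In osteoclasts Plau, the gene of urokinase, fell by 0.50 on the log2 scale (SE 0.07, limma adjusted p 4.98e-04), from 39.8 ± 0.931 to 27.9 ± 1.56 FPKM (SD, n = 3 each). Plaur, the gene of its receptor, rose there by 0.64 (SE 0.06, limma adjusted p 1.89e-05), from 10.2 ± 0.443 to 16.4 ± 0.620 FPKM (SD, n = 3 each). In macrophages Plau fell by 1.98 (SE 0.07, limma adjusted p 1.90e-10), from a level of 492 ± 23.0 FPKM (SD, n = 3). Plaur rose there by 1.58 (SE 0.06, limma adjusted p 3.71e-10), from 38.6 ± 3.44 to 117 ± 5.37 FPKM (SD, n = 3 each), a gene and comparison chosen after its values were seen. That difference went down to 0.88 over the 7 alternatives. Between untreated osteoclasts and macrophages the log2 difference of Plau was -3.59 (SE 0.07, limma adjusted p 8.12e-13).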
